A study of Mus musculus with 32 samples.

Results

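Plaque-associated microglia (PAM) and plaque-distant microglia (PCM) taken from the same mice at 8 months of age were compared over all measured genes. The 8 samples, 4 PAM and 4 PCM, were chosen by the age, distance and mouse number in their labels from the 32 samples of the series. Female mice 1088, 1089, 1129 and 1190 each gave a sample of both kinds. All carried the genotype CX3CR1+/gfp:APP/PS1Tg/0, which joins the APP/PS1 transgenes with an eGFP gene that replaces a single copy of Cx3cr1. According to the labels, PAM lay less than 75 µm and PCM more than 100 µm from an amyloid plaque. The study's text measures from the plaque centre and sets a slightly smaller limit for PAM. Control microglia (CM) of 4 other 8-month mice of the genotype CX3CR1+/gfp:APP/PS10/0, without the transgenes, describe the level in mice without plaques.

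The study isolated eGFP-bright cells of the cerebral cortex from thin frozen sections with an infrared laser, pooled the cells of a sample, pre-amplified their mRNA and sequenced 75-base reads. Plaques were seen with thiazine red, which stains dense-core deposits, so a cell called distant was distant from dense-core plaques only, and cells that clustered without a stained plaque were left out of PCM. Several limits come with the model. Both groups carry the transgenes and are heterozygous for Cx3cr1, any cell in which the Cx3cr1 promoter is active carries eGFP, and the captured volume can hold parts of neighbouring cells. The replicate is the mouse, so the comparison has 4 pairs.

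Microglia are the resident macrophages of the brain, and in the undisturbed cortex they survey their surroundings with fine processes and express purinergic, chemokine and growth factor receptors that hold them in that state. When amyloid aggregates, microglia gather around the deposit, and the lipid-sensing receptor TREM2, which signals through the adaptor TYROBP, is needed for that response. Cells next to plaques are known for phagocytic receptors, lysosomal enzymes, lipid-handling proteins and antigen presentation, a state described as disease-associated microglia (DAM) or activated response microglia (ARM).

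The values are FPKM (fragments per kilobase of transcript, relative to the depth of the sample), summed over the transcripts of a gene and scaled between samples by the median-ratio (RLE) method. The depth, estimated from the ratio of coverage to FPKM, was 23.7 to 30.55 M reads in PAM and 26.6 to 32.25 M reads in PCM, and it was lower in PAM than in PCM of the same mouse in 4 of 4 mice. More genes were listed at 0 in PAM in each mouse, 9495, 8867, 9619 and 9288 against 8565, 7388, 8156 and 9185 in PCM of mice 1088, 1089, 1129 and 1190. The 10 most abundant genes took 11.58% to 14.56% of the summed FPKM in PAM and 7.72% to 10.27% in PCM. Across genes, which are not independent replicates, PAM of mouse 1089 correlated with the other PAM samples at a mean of 0.909 and with PCM at 0.902, the smallest gap of the 8 samples. Genes entered the test if PAM or PCM had an FPKM of 1 or more in 3 or 4 mice, which left 12142 genes. Differences below are PAM minus PCM on the scale of log2(scaled FPKM + 1), which understates the change of low genes, and adjusted p-values are from limma with the mouse as a block and Benjamini-Hochberg adjustment over all genes tested. Values of single samples are given in the order of mice 1088, 1089, 1129 and 1190. Where the count of called genes of a list moved with the processing, brackets give its range with a mouse left out and then under the other alternatives that keep a filter and the variance trend.

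The label of the captured cells was checked against 17 genes of microglial identity, all of which passed the filter. Compared by group, 11 of them were higher in PAM (7 to 11; 5 to 11) and 0 lower (0 to 1; 0), with a median of 0.89 and 14 at an unadjusted p under 0.05. Their summed level was 6635, 6991, 11925 and 12413 in PCM and 17470.0, 16432, 19327 and 24455 in PAM, against 6816 ± 1898 (mean ± SD, n = 4) in CM. The most abundant member was C1qb in PCM and Tyrobp in PAM, and the sum was higher in PAM in each mouse. Defining markers of border macrophages, Cd163 (0 to 0.606) and Siglec1 (0 to 0.812), stayed under 1 FPKM in all 8 samples. Of the 11 border macrophage genes listed, 10 did not pass the filter, which asks for 1 FPKM in 3 or 4 mice of a group. The summed level of these 11 genes was 2.52, 4.87, 3.96 and 6.39 in PCM and 2.51, 24.2, 21.1 and 3.93 in PAM, so that PAM of mice 1089 and 1129 held more than any PCM sample, with Pf4 the most abundant in PAM and Stab1 in PCM. Snap25, a synaptic protein of neurons, still reached 1356, 1836, 2122 and 1785 in PCM and 1259.6, 1154, 1257 and 1267 in PAM. Neuronal RNA was therefore present in every sample, and the summed level of neuronal markers was lower in PAM in each mouse. In pooled samples, fewer cells of a type and less RNA per cell cannot be told apart. The summed level of astrocyte markers, given below, was higher in PAM in each mouse. The part that these differences in microglial, neuronal, border macrophage and astrocyte RNA have in the results was not tested.

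Cx3cr1 itself, the fractalkine receptor gene whose promoter drives eGFP, served to choose the cells and is no finding. Its level was 84.002, 54.8, 119.8 and 112 in PCM and 105, 88.4, 87.2 and 90.6 in PAM, and the groups overlapped. The difference of 0.06 (SE 0.199, adjusted p = 0.901) turned negative with the deposited, unscaled values (-0.0742) and after quantile normalization (-0.13).

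Among the called genes, most were higher near a plaque. PAM exceeded PCM in 573 genes (4.72% of those tested) and fell below it in 88 genes (0.725%), so that 86.7% of the called genes were higher in PAM and 13.3% lower. All 573 were higher in 4 of 4 mice, and 85 of the 88 were lower in 4 of 4. The 4 PAM values lay above the 4 PCM values for 514 of the 573 genes, and below them for 67 of the 88, while over all genes tested 1007 (8.29%) and 565 (4.65%) were without overlap in these directions. The difference was over 1 for 394 of the rises, over 2 for 111 and over 3 for 23, with a median of 1.28. Among the falls it was under -1 for 54 and under -2 for 17, with a median of -1.30. The filter admits a gene that reaches it in a single group. This was PAM for 45 of the rises, Cd200r4, Cd44, Cdk1, Dcstamp, Egr2, Itgax and Mir1892 of those named below among them, and PCM for 26 of the falls, with Bank1, Car7, Clec4a3, Gimap6, Glra2, Siglece, Syt6 and Zcchc4. Over all 12142 genes tested, 485 reached the filter in PAM alone and 1044 in PCM alone. For such genes the filter itself used the contrast, so their p-values are weaker support. The PCM mean was under 1 for 31 of the rises and the PAM mean for 19 of the falls. Over all genes tested 5770 of 12142 differences were positive, with a median of -0.03. An unadjusted p under 0.05 was reached by 2516 of the 12142 genes in limma.

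The size of these counts depended on the processing and on the mice. The deposited values without scaling moved the median of all genes to -0.15 and gave 448 rises and 194 falls, a split of 69.8% and 30.2%, and quantile normalization gave 449 and 234, a split of 65.7% and 34.3%, so differences are reported relative to the scaled median. Leaving out mouse 1089 left 271 rises and 23 falls, and leaving out mouse 1129 left 392 and 41. Without the filter on low values 19 rises and 0 falls passed limma, although 2555 of 17350 genes had an unadjusted p under 0.05, and without a variance trend 140 and 11 did. In the lists below, the markers of the plaque response then had 7 and 32 rises, the lysosomal genes 3 and 12, and no other list more than 1 and 7. Of the 106 called genes named below, 64 lost their call without the trend, namely Aldh1l1, Apoe, Arpc2, Atp6v0e, Atp6v1f, Atp6v1g1, Bhlhe40, C1qa, C1qb, C1qc, C1ql1, C3ar1, Car7, Ccl6, Cd14, Cd44, Cd74, Clu, Crybb1, Ctss, Efnb3, Egr2, Fabp5, Fcrls, Fth1, Grn, H2-Aa, H2-Ab1, H2-D1, H2-DMa, H2-DMb1, H2-T23, Hif1a, Higd1b, Hvcn1, Ifit3, Ifnar2, Irf8, Itgax, Itgb5, Lamp1, Mif, Mir1892, Mlc1, Oasl2, Olfml3, Pfn1, Rac2, Rhoa, S100a6, Siglece, Sparc, Spi1, Spp1, Syt1, Syt6, Tcirg1, Tgfb1, Tgfbr2, Tmsb4x, Tnfrsf1a, Ugt8a, Vamp2 and Vim. Those that kept their call without the filter were Ccl3, Gfap, Tyrobp, Cd63 and Npc2. With the deposited values, Atp6v1g1, Bhlhe40, C1ql1, Cd44, Egr2, H2-DMb1, Mif, Rhoa and Spi1 lost their call, and after quantile normalization Apoe, Arpc2, Atp6v1f, C1qb, C1qc, Ctss, Fcrls, Lamp1, Mlc1, Olfml3 and Tmsb4x did as well, together with all of the former but C1ql1, Cd44 and Egr2. A pseudocount of 0.1 ended the calls of Bhlhe40, C1ql1, Cd44, Cdk1, Egr2, H2-Aa, H2-DMb1, Hvcn1, Mir1892, Oasl2 and Siglece, the highest transcript alone those of Bhlhe40, Cd44, Fabp5 and Syt1, and a fit with the 12-month samples those of H2-DMb1 and S100a4. Calls were gained by App, Nrgn and Snap25 with the deposited values, by these and Aplp1 and Mbp after quantile normalization, by App and Sptssa with a filter of 5 FPKM, by Psap with the highest transcript alone, and by Actb, App, Cybb, Snap25 and Sptssa in the fit with the 12-month samples.

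Of the 33 lists of genes examined, known markers of the plaque response held the most rises. Of 55 such genes, 54 were tested, 49 were higher in PAM (46 to 49; 46 to 50) and 0 were lower, with a median of 2.102 against -0.03 over all genes. In 49 of the 54 the 4 PAM values lay above the 4 PCM values. The list holds DAM and ARM markers and some genes that the study names, so its direction is not independent evidence. Fth1, a subunit of the iron store ferritin and the most abundant member in PCM, rose by 0.7995 (SE 0.17, adjusted p = 0.0203), but its difference was -0.44 after quantile normalization. Cst7 (chr2:150570415-150578944, mm10), which encodes cystatin F, an inhibitor of lysosomal cysteine proteases, measured 17.6, 106, 146 and 117 in PCM and 873, 762, 1142 and 1389.5 in PAM. Every PAM value was above every PCM value, and the PCM sample of mouse 1088 was well below the other PCM samples. The difference was 3.73 (SE 0.35, adjusted p = 0.0001301), higher in 4 of 4 mice. Clec7a (chr6:129461591-129472777) encodes dectin-1, a receptor for fungal glucans. Its level was 5.103, 6.96, 25.8 and 17.2 in PCM and 172, 149, 174 and 203 in PAM, with no overlap and little spread among the PAM samples (log2 difference 3.82, SE 0.29, adjusted p = 4.44e-05). Fth1 lost its call without mouse 1089, 1129 or 1190, at an adjusted p of 0.1002 to 0.196.

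Genes of secreted and membrane proteins in the same list rose as well. Spp1, which encodes the matrix protein osteopontin, read 5.55, 17.4, 61.6 and 8.81 in PCM and 309, 60.5, 461 and 66.2 in PAM. It rose in each mouse, but the spread within PAM was wide and the highest PCM sample, from mouse 1129, reached above the lowest PAM sample (log2 difference 3.24, SE 0.46, adjusted p = 0.00172). Gpnmb, a transmembrane glycoprotein of phagocytes, was listed at 0 in the PCM sample of mouse 1088 and at 5.16 in the highest PCM sample, and reached 25.6, 13.7, 29.9 and 26.4 in PAM, a difference of 3.002 (SE 0.44, adjusted p = 0.00225). Itgax, the integrin chain CD11c, stood at 0.306, 0.774, 4.33 and 0.916 in PCM and 15.5, 18.4, 9.41 and 22.5 in PAM. The groups were apart, and the PCM sample of mouse 1129 was the highest of its group (log2 difference 2.92, SE 0.49, adjusted p = 0.00516). Lgals3, the galactose-binding lectin galectin-3, read 5.97, 0.768, 1.396 and 1.43 in PCM and 29.8, 18.7, 30.7 and 33.04 in PAM (log2 difference 3.29, SE 0.37, adjusted p = 0.000439). Capg, which caps actin filaments, rose by 3.55 (adjusted p = 0.000191) from 16.4 ± 9.22 to 165 ± 12.3 (mean ± SD, n = 4). Ch25h, which makes 25-hydroxycholesterol, read 2.003, 2.84, 1.48 and 4.59 in PCM and 70.6, 31.9, 68.1 and 73.97 in PAM. PAM of mouse 1089 had the lowest of the 4 PAM values and was still above all PCM values (log2 difference 4.05, SE 0.33, adjusted p = 4.97e-05).

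Among the 10 largest rises were further surface receptors and signalling genes. Lilrb4, an inhibitory receptor of the immunoglobulin superfamily, read 0, 3.05, 2.93 and 1.34 in PCM and 61.8, 39.6, 48.3 and 45.1 in PAM. The groups were far apart, with PCM at 0 in mouse 1088 (log2 difference 4.31, SE 0.42, adjusted p = 0.000162). Dcstamp, a transmembrane protein needed for the fusion of macrophages and osteoclasts, was listed at 0 in the PCM samples of mice 1088 and 1190 and reached 35.1, 12.1, 15.9 and 9.82 in PAM (log2 difference 3.74, SE 0.45, adjusted p = 0.000696). Cd200r4, a member of the CD200 receptor family, was at 20.5, 7.56, 11.3 and 10.7 in PAM and at 0.439 or below in PCM (log2 difference 3.52, SE 0.43, adjusted p = 0.000732). Lilrb4 and Cd200r4 have close paralogs, so reads of one family member may have been counted for another, and their levels are uncertain. The largest rise of all, 5.12 (adjusted p = 0.0101), was listed for Mir1892, a microRNA locus at chr12:54645933-54646012 inside Sptssa (chr12:54645374-54656572). Reads of Sptssa, which encodes a subunit of serine palmitoyltransferase, cannot be told apart from it here, and Sptssa was at 82.3, 42.99, 52.5 and 69.9 in PCM and 103, 103, 83.05 and 101 in PAM (log2 difference 0.69, SE 0.18, adjusted p = 0.0528). Sptssa gained a call without mouse 1088, at an adjusted p of 0.0379.

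**Figure D1:**
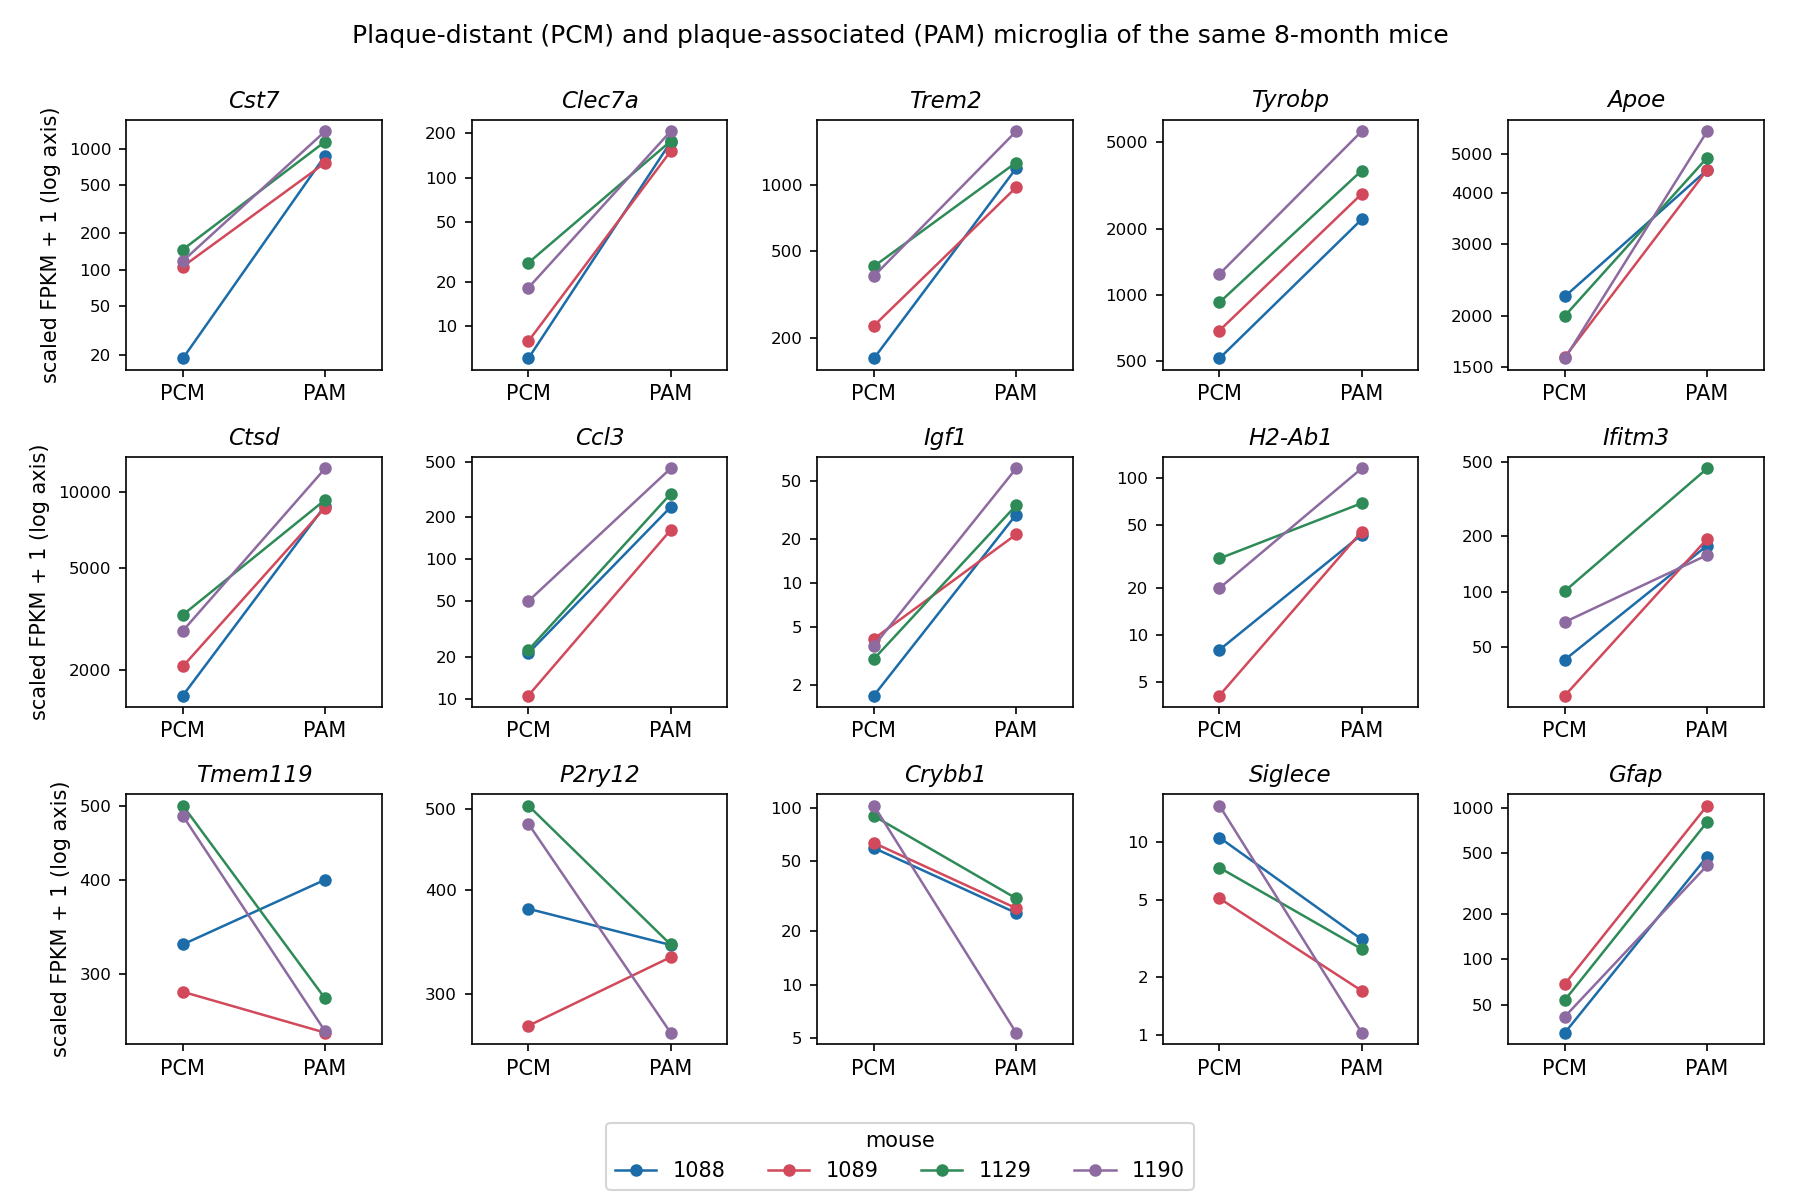
Scaled FPKM plus 1 (log axis, a different range in each panel) of 15 genes in PCM and PAM of 8-month mice, where each line joins the samples of a mouse. The lines of Cst7, Clec7a, Trem2, Tyrobp, Apoe, Ctsd, Ccl3, Igf1, H2-Ab1, Ifitm3 and Gfap rise in 4 of 4 mice, those of Crybb1 and Siglece fall in 4 of 4, and those of Tmem119 and P2ry12 cross.

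Some of the receptors that detect lipid, debris and microbial patterns were higher in PAM. In the list of phagocytic and pattern receptors, 36 of 44 genes were tested, 13 were higher (10 to 12; 11 to 13) and 1 was lower (0 to 1; 0 to 1) in PAM, with a median of 0.63. Trem2 (chr17:48346401-48352276), the lipid receptor named above, read 159.7, 226, 423 and 382 in PCM and 1193, 975, 1269 and 1764 in PAM. Each PAM sample held more than any PCM sample (log2 difference 2.196, SE 0.19, adjusted p = 7.69e-05). Its adaptor Tyrobp read 512, 686, 922 and 1244 in PCM and 2207, 2885, 3686 and 5571 in PAM, in the same order of mice in both groups (log2 difference 2.08, SE 0.13, adjusted p = 2.24e-05). Axl, a receptor tyrosine kinase that binds phosphatidylserine on dying cells through the bridging protein GAS6, rose from 13.5, 8.704, 18.5 and 11.3 to 94.6, 79.3, 78.97 and 76.1 (log2 difference 2.61, SE 0.21, adjusted p = 5.84e-05). Gas6 itself was at 37.2 ± 5.04 in PCM and 61.04 ± 17.3 in PAM and did not pass (adjusted p = 0.116). Cd14, the co-receptor for lipopolysaccharide, rose by 1.59 (SE 0.27, adjusted p = 0.00569). Itgb5, the integrin chain that pairs with alpha-V in the uptake of apoptotic cells, rose by 1.2996 (SE 0.203, adjusted p = 0.00318). Sirpa, the receptor of the "don't eat me" ligand CD47, had a difference of 0.54 (SE 0.19, adjusted p = 0.146) and overlapping groups. Cd14 lost its call without mouse 1089, at an adjusted p of 0.0503. Sirpa gained a call without mouse 1129, at an adjusted p of 0.0423.

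Siglece stood out in this list. It encodes a receptor for sialic acids that inhibits myeloid cells, and it measured 9.53, 4.09, 6.35 and 14.4 in PCM and 2.13, 0.692, 1.78 and 0.0261 in PAM. No PAM sample reached the lowest PCM sample, and PAM of mouse 1190 was almost at 0. The difference was -2.16 (SE 0.49, adjusted p = 0.0261), and CM of the same age read 9.91 ± 4.3002. Siglece lost its call without mouse 1089 or 1190, at an adjusted p of 0.0819 to 0.0832.

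Many lysosomal proteases and hydrolases rose. Of 66 genes, 64 were tested, 32 were higher (19 to 30; 25 to 33) and 0 lower (0; 0 to 1), with a median of 0.82. Among the 10 tested cathepsins of the list, which are proteases of the lysosome, 8 were higher and the median was 1.66. The list held 12 tested subunits of the proton pump that acidifies the lysosome, of which 0 passed limma, but it is not complete for the pump. Of all 19 pump genes that were tested, 4 were higher and 0 lower, with a median of -0.04 and differences from -0.45 to 1.63. The rises were Atp6v0e by 1.31 (SE 0.17, adjusted p = 0.00109), Atp6v1f by 0.65 (SE 0.13, adjusted p = 0.0156), Atp6v1g1 by 0.61 (SE 0.13, adjusted p = 0.0225) and Tcirg1, which encodes an a-type subunit, by 1.63 (SE 0.303, adjusted p = 0.00933). Without the mouse as a block the adjusted p of Atp6v1g1 was 0.0652 (0.0173 to 0.206 over all settings). The other 42 tested genes of the list, mostly hydrolases and membrane proteins, had 24 higher and a median of 0.89. Atp6v1f and Atp6v1g1 lost their calls without mouse 1089, 1129 or 1190; and Tcirg1 without mouse 1089, at an adjusted p of 0.0734 to 0.108.

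Ctsd (chr7:142375916-142387870), the aspartic protease cathepsin D, was the most abundant gene of the list. It read 1582, 2059, 3280.1 and 2839.8 in PCM and 8794, 8652, 9269.5 and 12313 in PAM. The groups were far apart and PAM of mouse 1190 was the highest (log2 difference 2.04, SE 0.18, adjusted p = 9.90e-05). Ctsb, a cysteine protease, rose by 1.65 (SE 0.16, adjusted p = 0.000142) from 254, 306, 474 and 375 to 995, 987, 1034 and 1328, and Ctsz rose by 2.12 (SE 0.17, adjusted p = 4.97e-05). Ctss, the cathepsin that trims the invariant chain of MHC class II, rose by 0.93 (SE 0.15, adjusted p = 0.00331), with overlapping groups and an adjusted p of 0.0795 when the mouse was not used as a block (0.00199 to 0.121 over all settings tried). Cd68 and Cd63 encode membrane glycoproteins of late endosomes. Cd68 rose from 117, 159, 244 and 269.9 to 1077, 892, 1086 and 1075 (log2 difference 2.45, SE 0.19, adjusted p = 4.44e-05), with PAM of mouse 1089 below the other PAM samples. Cd63 rose from 108, 63.7, 113 and 114 to 516, 504, 509.6 and 616 (log2 difference 2.45, SE 0.16, adjusted p = 2.24e-05). Npc2, which hands cholesterol out of the lysosome, rose by 1.76 (SE 0.15, adjusted p = 6.69e-05), and Grn, whose product progranulin is needed for lysosomal function, by 1.59 (SE 0.19, adjusted p = 0.000673). Psap, the precursor of the saposins, had a difference of 0.38 (SE 0.14, adjusted p = 0.148) with all PAM values above PCM, and Atp6v1e1, a subunit of the proton pump, one of -0.07 (SE 0.13, adjusted p = 0.7996). Ctss lost its call without mouse 1089, at an adjusted p of 0.05004.

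Promoters of lysosomal genes were searched because many of these genes are known to carry the E-box CACGTG, the core of the element bound by TFEB and related factors. The letters read the same on both strands. Windows of 250 bases before the start of the gene in RefSeq were taken from RefSeq promoters (GRCm38.p6), which held 53 of the 66 genes. The E-box lay in 16 of the 53 (30.2%) and in 6 of the 24 lysosomal genes with a promoter that were higher in PAM (25.0%), against 10.3% of all tested genes and 6.86% of all genes of the promoter table. Among all 573 genes higher in PAM, of which 446 had a promoter, the share was 10.1%. The M-box TCATGTG, a relative of the E-box read by MITF and TFE factors on either strand, lay in 5 of the 53 (9.43%) and in 2 of the 24 that were higher (8.33%), against 2.2% of all tested genes and 3.72% of the promoter table. Its share was 4.26% among all genes higher in PAM and 0% among lower ones. Among the plaque response genes that were higher it was 8.11%. Ctsd and Lamp1 are shown because they hold the motif more than once, 2 and 4 times. Lamp1, which encodes an abundant lysosomal membrane protein, rose by 0.87 (SE 0.16, adjusted p = 0.00801). Lamp1 lost its call without mouse 1089, at an adjusted p of 0.0678. Capitals mark CACGTG, and both run 5′ to 3′ on the strand of the gene, Ctsd at chr7:142387828-142388077 (minus strand) and Lamp1 at chr8:13158911-13159160 (plus strand).
Ctsd: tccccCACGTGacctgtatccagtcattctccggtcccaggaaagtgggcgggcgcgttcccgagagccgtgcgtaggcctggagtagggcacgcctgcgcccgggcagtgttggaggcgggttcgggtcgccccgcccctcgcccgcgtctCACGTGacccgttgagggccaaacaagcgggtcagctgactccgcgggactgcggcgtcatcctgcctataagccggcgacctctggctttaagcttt
Lamp1: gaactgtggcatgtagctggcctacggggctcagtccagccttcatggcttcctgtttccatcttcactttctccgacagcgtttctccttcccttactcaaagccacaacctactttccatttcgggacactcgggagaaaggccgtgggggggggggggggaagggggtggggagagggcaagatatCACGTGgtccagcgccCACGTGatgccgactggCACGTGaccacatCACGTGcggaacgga
The nearest E-box of Lamp1 began 15 bases before the start in RefSeq. The deposited files place some starts elsewhere, so that 43 bases of the Ctsd window, without a match, and 26 of the Lamp1 window, with that E-box and part of the next, lie inside the gene as they give it. A match describes the letters in this window and says nothing about binding.

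Genes that carry and store lipids rose in part, and none of the listed genes that make cholesterol passed the test. Of 33 genes of lipid handling, 31 were tested, 11 were higher (8 to 11; 10 to 12) and 0 lower (0; 0 to 1), with a median of 0.45. The median was 0.93 without mouse 1088. Apoe (chr7:19696244-19699166), which encodes the main apolipoprotein of the brain, was high in every sample, at 2229.9, 1584, 1999 and 1571 in PCM and 4556, 4555, 4882 and 5666 in PAM. No PAM sample fell to the PCM range, and the PAM samples differed little (log2 difference 1.42, SE 0.17, adjusted p = 0.000602). Lpl, the lipase that releases fatty acids from lipoproteins, read 3.75, 9.26, 9.27 and 7.28 in PCM and 60.02, 43.3, 69.1 and 74.4 in PAM (log2 difference 2.94, SE 0.27, adjusted p = 0.000128). Fabp5, a fatty acid carrier of the cytosol, rose by 1.02 (SE 0.15, adjusted p = 0.00185), while its relative Fabp3 was at 74.2 ± 7.53 in PCM and 99.4 ± 23.3 in PAM (adjusted p = 0.209). Scd2, a desaturase that makes oleic acid, had a difference of -0.14 (SE 0.15, adjusted p = 0.647). In cholesterol synthesis, 22 of 22 genes were tested, 0 passed limma and 0 had an unadjusted p under 0.05, with 12 positive differences, a range of -0.37 to 0.44 and a median of 0.01 that became -0.12 with the deposited values and -0.10 after quantile normalization.

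Most of the tested genes of complement and Fc receptors were higher in PAM. Of 21 genes, 17 were tested, and 11 were higher (9 to 13; 9 to 11) and 0 lower, with a median of 1.18 and all 17 differences positive. The chains of C1q, the recognition protein of the classical pathway, are encoded by C1qa, C1qb and C1qc. C1qa read 744, 647, 1073 and 1423 in PCM and 1835, 1636, 2039.5 and 2439 in PAM (log2 difference 1.09, SE 0.15, adjusted p = 0.00148). C1qb rose by 1.06 (SE 0.16, adjusted p = 0.00291) and C1qc by 1.15 (SE 0.17, adjusted p = 0.00216), also without overlap. C4b, the next protein of that pathway, stood at 4.47, 1.35, 3.49 and 2.096 in PCM and 17.6, 18.4, 17.4 and 13.8 in PAM (log2 difference 2.28, SE 0.35, adjusted p = 0.00314), although C4b has a near-identical copy in the mouse genome, so its level is uncertain. Fcer1g, the shared signalling chain of Fc receptors, read 342, 363, 549 and 698 in PCM and 1688, 1579, 2082 and 2288 in PAM, and the groups were far apart (log2 difference 2.01, SE 0.14, adjusted p = 3.73e-05). Fcgr1, the high-affinity IgG receptor, overlapped between groups with a difference of 0.75 (SE 0.25, adjusted p = 0.123). C3ar1, the receptor for complement fragment C3a, rose by 1.27 (SE 0.24, adjusted p = 0.00975). C3ar1 lost its call without mouse 1089, at an adjusted p of 0.0656.

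The NADPH oxidase makes superoxide in phagocytes, and 4 of the 8 listed genes were higher in PAM (1 to 5; 2 to 5), with a median of 1.46 and all 8 positive. Cyba, the membrane subunit p22phox, read 143, 128, 249 and 336 in PCM and 751, 484, 730.2 and 813 in PAM (log2 difference 1.78, SE 0.18, adjusted p = 0.000194). The GTPase Rac2 rose by 1.43 (SE 0.28, adjusted p = 0.0132) and the voltage-gated proton channel Hvcn1 by 1.51 (SE 0.34, adjusted p = 0.0272). Cybb, the catalytic subunit, was at 0, 0.0422, 5.31 and 2.01 in PCM and 8.56, 7.83, 5.99 and 5.41 in PAM. All PAM values were above all PCM values, yet the spread in PCM was wide and the test did not pass (log2 difference 1.89, SE 0.55, adjusted p = 0.0766), while at 12 months the difference was 2.01 (adjusted p = 0.0299). Ncf1, the organiser p47phox, had a difference of 0.699 (SE 0.28, adjusted p = 0.184), and Rac1 one of 0.32 (SE 0.13, adjusted p = 0.206). Hvcn1 and Rac2 lost their calls without mouse 1089, at an adjusted p of 0.0892 to 0.125. Cybb gained a call without mouse 1129, at an adjusted p of 0.0412.

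Some chemokines and growth factors that microglia secrete were higher near plaques. Of 37 genes, 27 were tested, 11 were higher (9 to 11; 10 to 12) and 0 lower, with a median of 0.97. Tnf, Il10 and 8 others stayed under the filter, with Tnf listed at 0 in 7 of the 8 samples. Ccl3 (chr11:83647843-83649378), a chemokine that attracts myeloid cells, read 20.2, 9.55, 21.3 and 49.1 in PCM and 235, 160.5, 292 and 446 in PAM. It rose in each mouse by a similar factor, and the order of the mice was the same in both groups (log2 difference 3.57, SE 0.17, adjusted p = 2.42e-06). Ccl6, a related chemokine, read 21.8, 72.5, 181 and 149 in PCM and 823, 441, 789 and 746 in PAM (log2 difference 3.05, SE 0.397, adjusted p = 0.00107), with a low PCM value in mouse 1088. Igf1, a trophic factor, measured 0.698, 3.15, 2.02 and 2.71 in PCM and 28.4, 20.5, 33.01 and 59.8 in PAM, with PAM of mouse 1190 the highest (log2 difference 3.503, SE 0.36, adjusted p = 0.000259). Csf1, the growth factor that acts on the microglial receptor CSF1R, rose from 3.24, 6.75, 11.6 and 3.56 to 31.5, 28.3, 27.7 and 33.2 (log2 difference 2.24, SE 0.34, adjusted p = 0.00262). Tgfb1, which keeps microglia in their homeostatic state, rose by 1.42 (SE 0.24, adjusted p = 0.00551), and Mif, an abundant inflammatory mediator, by 0.62 (SE 0.14, adjusted p = 0.0307). Cxcl10, an interferon-induced chemokine, was listed at 4.03, 0, 0 and 0 in PCM and 0, 54.6, 67.7 and 3.3999 in PAM. Mice 1089 and 1129 carried nearly all of it, and it did not pass (log2 difference 2.93, SE 1.101, adjusted p = 0.164). Cxcl14, another chemokine, had a difference of 0.297 (SE 0.16, adjusted p = 0.3301). Mif lost its call without mouse 1089, 1129 or 1190, at an adjusted p of 0.0986 to 0.1498. Cxcl10 gained a call without mouse 1088, at an adjusted p of 0.00278.

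A few receptors for such signals were higher too. Of 30 genes, 25 were tested, and 5 were higher (2 to 6; 5 to 6) and 0 lower, with a median of 0.50. The median was 0.24 without mouse 1088. Tnfrsf1a, the main TNF receptor, rose by 1.19 (SE 0.23, adjusted p = 0.0122), Tgfbr2, the type II receptor of TGF-beta, by 1.16 (SE 0.22, adjusted p = 0.0111), and Ifnar2, a chain of the type I interferon receptor, by 1.15 (SE 0.18, adjusted p = 0.00286). Csf1r, on which microglia depend for survival, was at 238, 263, 443 and 404 in PCM and 587, 464, 406 and 482 in PAM. The groups overlapped in mouse 1129, which alone was lower in PAM, and the difference of 0.56 (SE 0.21, adjusted p = 0.155) did not pass. Ifngr1, a chain of the interferon-gamma receptor, had one of -0.33 (SE 0.24, adjusted p = 0.475). Tgfbr2 and Tnfrsf1a lost their calls without mouse 1089, at an adjusted p of 0.0832.

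Most of the tested genes of antigen presentation by both MHC classes were higher in PAM. For MHC class II, 9 of 10 genes were tested, 7 were higher (3 to 7; 4 to 7) and 0 lower, with a median of 1.59 and all 9 positive. H2-Ab1, the beta chain of I-A, read 7.01, 3.096, 29.7 and 18.8 in PCM and 42.5, 44.6, 68.1 and 114 in PAM. The groups did not overlap, and PCM of mice 1129 and 1190 was above PCM of the other 2 mice (log2 difference 2.41, SE 0.32, adjusted p = 0.00113). H2-Aa, the alpha chain, was listed at 0, 0.916, 28.9 and 27.8 in PCM and 35.3, 15.3, 45.04 and 87.1 in PAM. The groups overlapped, since PAM of mouse 1089 was below PCM of mice 1129 and 1190 (log2 difference 2.63, SE 0.57, adjusted p = 0.0221), and without the mouse as a block the adjusted p was 0.149 (0.0102 to 0.276 over all settings). Cd74, the invariant chain, was also low in PCM of mice 1088 and 1089, with 4.84, 4.71, 60.6 and 79.8 in PCM and 116, 58.4, 173 and 275 in PAM (log2 difference 2.74, SE 0.39, adjusted p = 0.00172), and an adjusted p of 0.0677 without the block (0.000866 to 0.158 over all settings). H2-DMa and H2-DMb1, which load peptides onto class II, rose by 1.24 and 0.94 (adjusted p = 0.00158 and 0.0398). H2-Eb1, the beta chain of I-E, was low, at 3.78 ± 3.39 in PCM and 8.67 ± 7.82 in PAM, and did not pass (adjusted p = 0.278). H2-Aa lost its call without mouse 1089; and H2-DMb1 without mouse 1088, 1089 or 1190, at an adjusted p of 0.0775 to 0.201.

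For MHC class I, 11 of 13 genes were tested, 8 were higher (5 to 8; 7 to 8) and 0 lower, with a median of 1.30 and all 11 positive. B2m, the light chain shared by class I molecules, read 776, 735, 1457 and 1515 in PCM and 2959.6, 3043, 4619.5 and 4651 in PAM, with the groups well apart (log2 difference 1.81, SE 0.14, adjusted p = 4.97e-05). H2-K1 and H2-D1, classical heavy chains, rose by 1.801 (SE 0.17, adjusted p = 0.0001196) and 1.51 (SE 0.18, adjusted p = 0.000721), and the non-classical H2-T23 by 1.26 (SE 0.17, adjusted p = 0.00133). Heavy chain genes resemble each other closely, so reads may have been shared among them and their single values are uncertain. Psmb10, a subunit of the immunoproteasome, had a difference of 0.35 (SE 0.16, adjusted p = 0.255), and Tap2, a peptide transporter, one of 0.88 (SE 0.52, adjusted p = 0.373).

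Interferon response genes rose in a subset. Of 37 genes, 33 were tested, 12 were higher (4 to 10; 9 to 15) and 0 lower, with a median of 1.33. Ifitm3, an antiviral membrane protein, read 41.97, 26.5, 99.8 and 67.6 in PCM and 176, 191, 461 and 157 in PAM. All PAM values were above PCM, and mouse 1129 was the highest of both groups (log2 difference 2.06, SE 0.22, adjusted p = 0.0003403). Ifi27l2a, an interferon-induced gene of mitochondria, rose from 28.5, 12.6, 66.6 and 56.5 to 377, 169, 497 and 297 (log2 difference 3.14, SE 0.22, adjusted p = 3.07e-05), although close paralogs make its level uncertain. Bst2, or tetherin, which holds budding virus at the cell surface, rose from 18.99, 22.4, 41.9 and 40.01 to 137, 87.7, 142 and 155 (log2 difference 2.09, SE 0.198, adjusted p = 0.0001297). Ifit3, which binds viral RNA complexes, read 10.7, 5.34, 13.5 and 1.76 in PCM and 22.9, 21.8, 32.5 and 21.2 in PAM (log2 difference 1.77, SE 0.35, adjusted p = 0.0126). Irf8, a transcription factor of myeloid cells, rose by 1.66 (SE 0.24, adjusted p = 0.00211). Oasl2, a relative of the oligoadenylate synthetases, rose by 1.75 (SE 0.42, adjusted p = 0.0352), with an adjusted p of 0.0502 without the block (0.00858 to 0.1802 over all settings). Ifit2 was at 1.74 ± 1.103 in PCM and 3.86 ± 1.88 in PAM, and Irf1 at 9.55 ± 5.13 and 11.3 ± 7.22, and neither passed (adjusted p = 0.271 and 0.839). Ifit3 lost its call without mouse 1089; and Oasl2 without mouse 1088, 1089 or 1129, at an adjusted p of 0.0752 to 0.1798.

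The core of the interferon-stimulated response element, GAAA and GAAA with any 2 bases between them, on either strand, was searched in the same windows. It lay in 12 of the 27 interferon response genes with a promoter (44.4%), in 5 of the 10 that were higher in PAM (50.0%), in 2 of 11 genes of MHC class I (18.2%) and in 2 of the 8 of these that were higher (25.0%), against 3.09% of all tested genes and 3.46% of all genes of the promoter table. Among the 446 genes higher in PAM with a promoter it lay in 6.5%, and among the 58 lower ones in 8.62%. Its letters can overlap those of the motif GAGGAA, the core bound by PU.1. Promoters of Ifit3, Bst2 and B2m are shown as members of these lists that rose, with the matches in capitals, where a match on the opposite strand reads TTTC, 2 bases, TTTC. They run 5′ to 3′ on the strand of the gene, Ifit3 at chr19:34583279-34583528 (plus), Bst2 at chr8:71537473-71537722 (minus) and B2m at chr2:122147437-122147686 (plus), all GRCm38.p6 from RefSeq.
Ifit3: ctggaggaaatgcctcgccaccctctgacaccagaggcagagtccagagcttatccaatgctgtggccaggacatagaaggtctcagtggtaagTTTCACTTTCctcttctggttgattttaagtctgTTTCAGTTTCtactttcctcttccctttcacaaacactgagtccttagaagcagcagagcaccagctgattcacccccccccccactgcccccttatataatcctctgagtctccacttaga
Bst2: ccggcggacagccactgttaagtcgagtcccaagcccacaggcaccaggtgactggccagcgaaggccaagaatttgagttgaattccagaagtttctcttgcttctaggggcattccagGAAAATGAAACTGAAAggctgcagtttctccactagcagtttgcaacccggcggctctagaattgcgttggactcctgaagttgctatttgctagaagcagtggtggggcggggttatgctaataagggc
B2m: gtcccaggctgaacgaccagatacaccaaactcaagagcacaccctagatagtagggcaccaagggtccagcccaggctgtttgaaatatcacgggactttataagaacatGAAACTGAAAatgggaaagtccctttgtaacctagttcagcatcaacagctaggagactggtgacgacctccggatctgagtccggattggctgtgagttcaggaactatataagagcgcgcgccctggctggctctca
Bst2 holds 2 matches that share bases, and Ifit3 holds 2 that lie apart. The window of Bst2 ends 35 bases before the start in the deposited files.

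Some genes of the cytoskeleton and of its regulators rose. Of 43 genes of actin and its regulators, 42 were tested, 13 were higher (7 to 13; 8 to 13) and 0 lower, with a median of 0.61. Tmsb4x, which binds actin monomers, was one of the most abundant genes of all samples, at 4045, 3169, 4301 and 5660.0 in PCM and 9609.6, 8277, 11569 and 10112 in PAM. The groups were apart (log2 difference 1.22, SE 0.17, adjusted p = 0.00154). Pfn1, which promotes actin assembly, rose by 0.84 (SE 0.15, adjusted p = 0.00788), Arpc2, a subunit of the actin-branching Arp2/3 complex, by 0.71 (SE 0.14, adjusted p = 0.0111), and the GTPase Rhoa by 0.704 (SE 0.16, adjusted p = 0.0258). Vim, the intermediate filament vimentin, rose from 1.84, 2.94, 5.76 and 15.001 to 31.6, 73.2, 52.7 and 36.8 (log2 difference 2.998, SE 0.41, adjusted p = 0.00148); it is expressed by reactive astrocytes too. Actb was higher in each mouse without passing (log2 difference 0.55, SE 0.16, adjusted p = 0.0731), and Rhog had a difference of 0.57 (SE 0.18, adjusted p = 0.0998). Arpc2 and Rhoa lost their calls without mouse 1089 or 1129; and Pfn1 without mouse 1089, at an adjusted p of 0.0549 to 0.171. Actb gained a call without mouse 1088 and Rhog without mouse 1190, at an adjusted p of 0.049004 to 0.0495.

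Transcription factors changed in a few cases. Of 30 microglial factors, 27 were tested, 7 were higher (2 to 5; 4 to 8) and 0 lower (0 to 1; 0 to 1), with a median of 0.39. Spi1, which encodes PU.1, the factor that specifies microglia, read 49.02, 32.2, 72.5 and 70.7 in PCM and 102, 64.9, 119 and 88.8 in PAM. It rose in each mouse, the groups overlapped (log2 difference 0.77, SE 0.17, adjusted p = 0.0264), and the adjusted p was 0.117 without the block (0.0203 to 0.173 over all settings). Bhlhe40, a factor tied to lipid metabolism in macrophages, rose by 0.82 (SE 0.21, adjusted p = 0.0478), with an adjusted p of 0.162 without the block (0.0245 to 0.209 over all settings). Cebpb had a difference of 0.52 (SE 0.21, adjusted p = 0.191). Hif1a, the oxygen-sensitive factor, read 17.7, 18.9, 24.8 and 24.4 in PCM and 89.3, 63.8, 45.2 and 56.2 in PAM (log2 difference 1.496, SE 0.24, adjusted p = 0.00389). It and Egln3, an oxygen-sensing hydroxylase induced by it (2.02, SE 0.32, adjusted p = 0.00356), were the only called genes among 23 of glycolysis and hypoxia (2 to 3; 2 to 3), where the median of 0.25 became -0.11 after quantile normalization. Among 19 tested immediate early genes 2 were higher (1 to 2; 1 to 2), Atf3, a stress-induced factor, by 2.81 (SE 0.44, adjusted p = 0.00318), and Egr2 by 1.84 (SE 0.44, adjusted p = 0.0366), and the median of 0.05 was -0.08 with the deposited values and -0.01 after quantile normalization. Egr1, the most abundant of them, was at 105, 116, 115 and 53.2 in PCM and 112, 77.03, 85.2 and 35.3 in PAM (adjusted p = 0.238). In the cell cycle list, 21 of 30 genes were tested and Cdk1, the kinase that drives mitosis, was the only call (0 to 1; 0 to 3), at a median of 0.55. The share called higher was 4.76% in this list, 8.7% for glycolysis and hypoxia and 10.5% for immediate early genes, against 4.72% over all genes. Cdk1, which passed the filter through PAM alone, read 0.0275, 1.42, 0.478 and 0.729 in PCM and 5.096, 7.37, 6.25 and 3.51 in PAM (log2 difference 2.01, SE 0.41, adjusted p = 0.0156). Mki67, Top2a and 7 others stayed under the filter, and Pcna had a difference of 0.34 (SE 0.19, adjusted p = 0.341). Bhlhe40 and Egr2 lost their calls without mouse 1088, 1089 or 1190; and Cdk1 and Spi1 without mouse 1088, 1089 or 1129, at an adjusted p of 0.0591 to 0.2002.

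The motif GAGGAA, the core bound by PU.1, was counted on both strands because Spi1 rose; it can share bases with the interferon-stimulated core and with the M-box. It lay in 8 of 11 microglial identity genes with a promoter (72.7%), in 7 of the 7 of these that were higher in PAM, in 6 of 19 homeostatic genes (31.6%), in 1 of the 3 of these that were higher (33.3%), in 13 of 41 plaque response genes (31.7%) and in 11 of the 37 of these that were higher (29.7%), against 26.0% of all tested genes and 25.9% of the promoter table. The share was 29.6% among genes higher in PAM and 25.9% among lower ones. The AP-1 motif TGANTCA, which can share bases with the E-box and the M-box, lay in 5 of the 41 plaque response genes (12.2%), in 4 of the 37 that were higher (10.8%), in 7 of 27 cytokine genes (25.9%) and in 1 of the 9 that were higher (11.1%), against 5.32% of tested genes and 7.82% of the promoter table. Its share was 8.07% among all genes higher in PAM and 5.17% among lower ones. C1qb and Trem2 are shown as an identity gene and a response gene with GAGGAA near the start, in capitals, which reads TTCCTC on the opposite strand. C1qb lies at chr4:136886201-136886450 (minus) and Trem2 at chr17:48346151-48346400 (plus), 5′ to 3′ on the strand of the gene, RefSeq GRCm38.p6.
C1qb: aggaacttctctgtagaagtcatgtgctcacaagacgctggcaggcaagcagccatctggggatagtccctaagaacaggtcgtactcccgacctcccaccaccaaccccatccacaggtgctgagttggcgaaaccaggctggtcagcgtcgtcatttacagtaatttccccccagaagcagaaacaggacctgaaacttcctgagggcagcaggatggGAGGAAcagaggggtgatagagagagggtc
Trem2: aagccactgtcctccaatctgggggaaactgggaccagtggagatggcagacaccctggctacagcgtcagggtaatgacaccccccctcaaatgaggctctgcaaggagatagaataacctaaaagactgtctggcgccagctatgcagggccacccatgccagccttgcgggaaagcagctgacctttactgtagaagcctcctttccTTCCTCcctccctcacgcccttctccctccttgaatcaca
The motif began 30 bases before the RefSeq start of C1qb, which lies 23 bases before that of the deposited files, and 40 bases before that of Trem2.

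**Figure D2:**
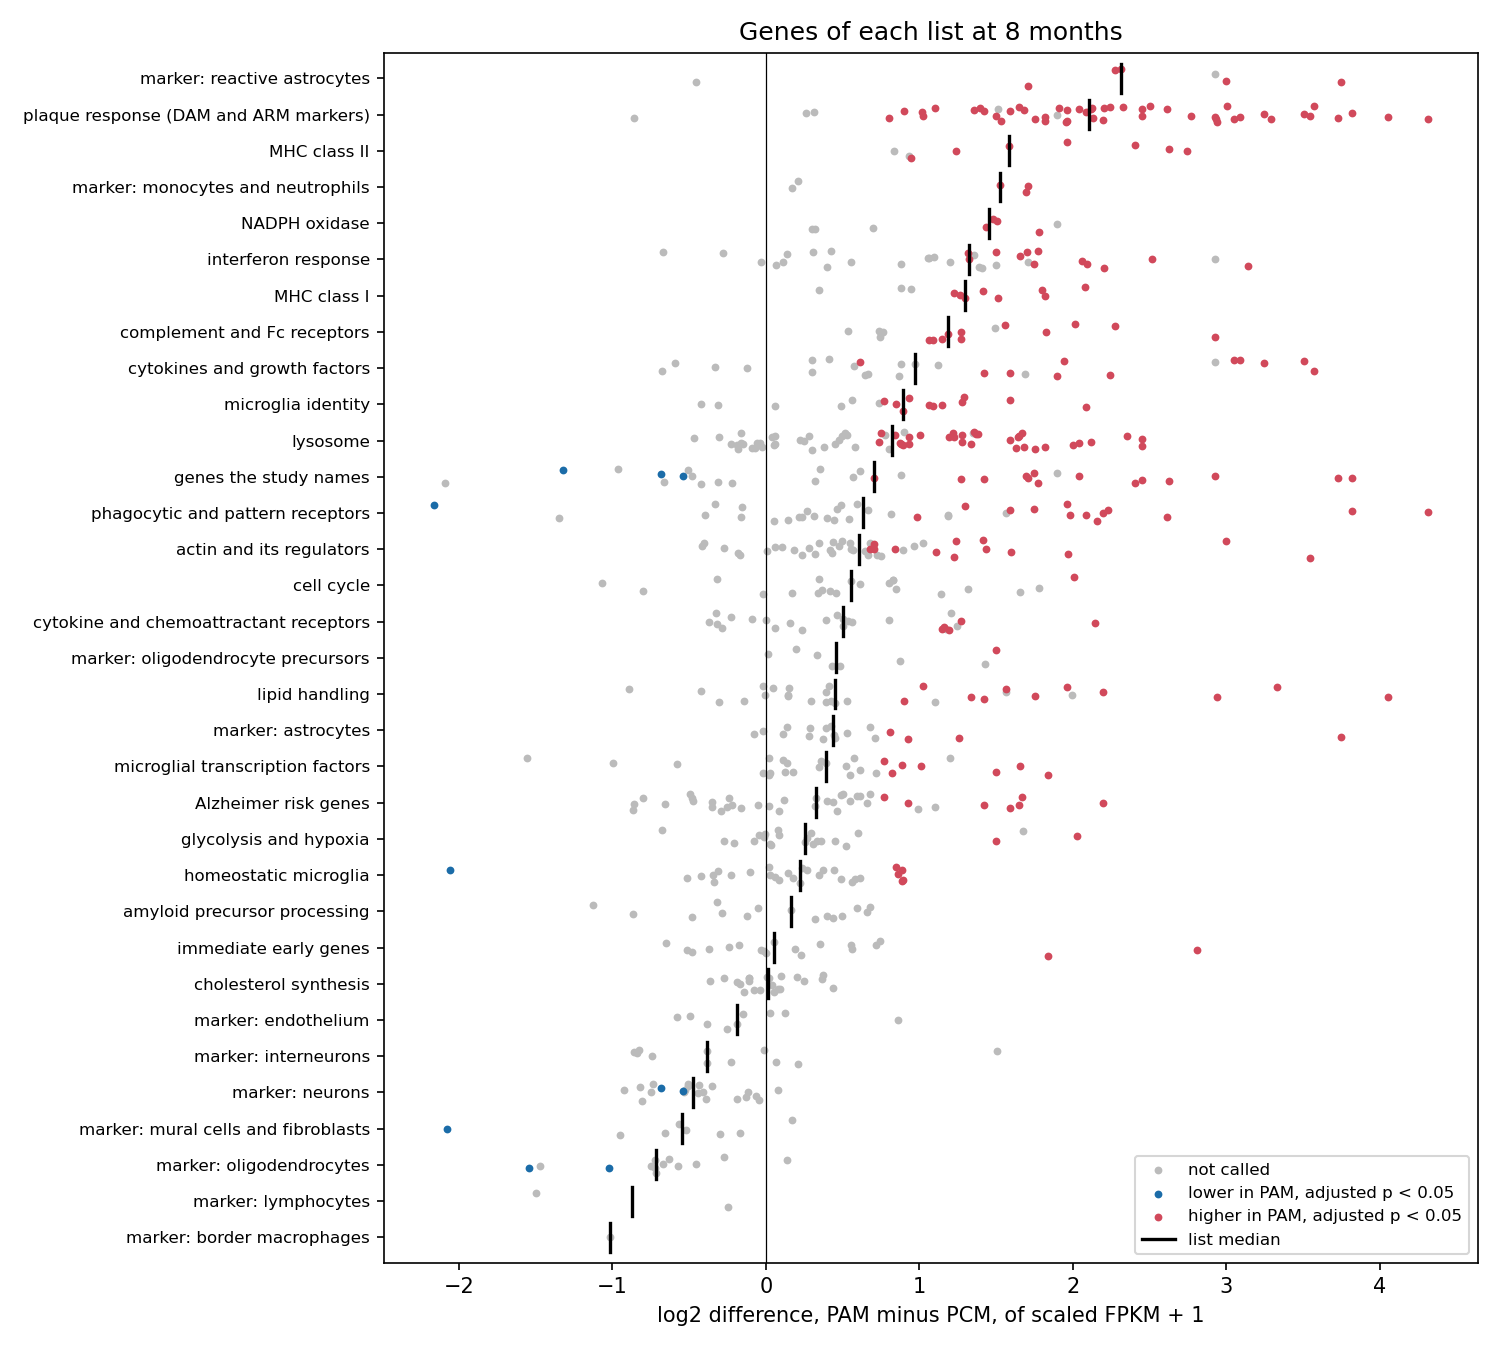
Log2 difference, PAM minus PCM, of each tested gene (points) in 33 lists, ordered by the list median (black bar), with called genes in red (higher in PAM) and blue (lower). The median is 2.102 for the plaque response genes, 0.22 for homeostatic genes and -0.48 for neuronal markers.

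Few homeostatic genes were called, and they went both ways. All 29 were tested, 5 were higher (1 to 5; 2 to 6) and 1 was lower (1 to 2; 1), and the median of 0.22 became 0.09 with the deposited values and 0.07 after quantile normalization. The median was 0.105 without mouse 1088 and 0.35 without mouse 1190. Tmem119, a membrane protein typical of microglia, measured 327, 283, 500.3 and 485 in PCM and 399, 250.1, 278 and 251 in PAM. It was lower in PAM in 3 mice and higher in mouse 1088, and did not pass (log2 difference -0.42, SE 0.197, adjusted p = 0.254). P2ry12, the ADP receptor that steers microglial processes, was at 379, 274, 503 and 479 in PCM and 343, 331, 343 and 269 in PAM, with overlapping groups (log2 difference -0.31, SE 0.18, adjusted p = 0.351). Gpr34, a lysophosphatidylserine receptor, had a difference of 0.62 (SE 0.19, adjusted p = 0.0979). Olfml3, a secreted matrix protein, rose by 0.86 (SE 0.18, adjusted p = 0.01605), Sparc, another matrix protein, by 0.88 (SE 0.13, adjusted p = 0.00258), and Fcrls, an Fc receptor-like scavenger receptor, by 0.85 (SE 0.16, adjusted p = 0.0105). Crybb1, a crystallin expressed by microglia, fell from 58.1, 62.1, 88.5 and 101 in PCM to 24.4, 26.02, 29.7 and 4.36 in PAM. The groups were apart, PAM of mouse 1190 was the lowest, and CM read 65.7 ± 14.5 (log2 difference -2.06, SE 0.42, adjusted p = 0.0161). The summed level of this list was 16038, 13635, 20182 and 21618 in PCM and 21255, 20182, 22718 and 26266 in PAM. Most of the sum came from Cst3, with a mean of 12336 of 17868 in PCM and 14858 of 22605 in PAM. Fcrls and Olfml3 lost their calls without mouse 1089, at an adjusted p of 0.0806 to 0.128. Tmem119 gained a call without mouse 1088, at an adjusted p of 0.0486.

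A minority of genes tied to the risk of Alzheimer's disease in people rose. Of 41 listed, 39 were tested, 7 were higher (5 to 7; 5 to 8) and 0 lower (0 to 1; 0 to 1), with a median of 0.32. The median was 0.18 without mouse 1089 and 0.12 without mouse 1190. Apoe, Trem2, Spi1, Grn and Ctsb, described above, were among them, and Clu, a secreted chaperone also abundant in astrocytes, rose from 665, 521, 570.1 and 418 to 898, 1178, 1186 and 863 (log2 difference 0.93, SE 0.15, adjusted p = 0.00447). In amyloid precursor processing, 15 of 16 genes were tested and 0 passed limma (0 to 1; 0 to 2). An unadjusted p under 0.05 was reached by 7 of them, against 2516 of all 12142 genes tested. The median was 0.16, and -0.06 without mouse 1088. App, the precursor gene, was at 627, 921, 746 and 747 in PCM, 478, 595, 536 and 556 in PAM and 359.5 ± 11.2 in CM. All PAM values were below PCM, and the difference of -0.48 (SE 0.13, adjusted p = 0.0538) did not pass, though it did with the deposited values (adjusted p = 0.0156, 0.00581 to 0.287 over all settings). The study reports that the App it detected was mouse App and not the human transgene. Whether reads of the transgene add to the App values used here was not tested. Aplp1, a neuronal relative, had a difference of -0.32 (SE 0.13, adjusted p = 0.199). Clu lost its call without mouse 1089, at an adjusted p of 0.0589. App gained a call without mouse 1088, at an adjusted p of 0.0463.

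Genes that fell near plaques were fewer. Clec4a3, a C-type lectin receptor of myeloid cells, had the largest fall among genes without overlap. It read 28.1, 12.7, 22.5 and 38.7 in PCM and 0.678, 1.19, 0 and 6.41 in PAM, with PAM of mouse 1190 the highest of its group (log2 difference -3.44, SE 0.43, adjusted p = 0.000875). Its close relatives make the level uncertain, and CM was at 14.7 ± 5.43. Syt6, a synaptotagmin, fell from 11.1 ± 5.06 to 0.634 ± 0.953 (mean ± SD, n = 4, log2 difference -2.95, SE 0.51, adjusted p = 0.00623). Gimap6, a GTPase of immune cells, fell from 9.16, 8.96, 10.5 and 5.499 to 0.929, 0, 0.493 and 0.824 (log2 difference -2.62, SE 0.42, adjusted p = 0.00362). Bank1, an adaptor best known from B cells, was listed at 0 in all 4 PAM samples and at 4.94, 3.11, 6.09 and 5.69 in PCM. Zcchc4, an RNA methyltransferase, was also listed at 0 in all PAM samples, against 3.48, 2.58, 3.48 and 2.88 in PCM. Glra2, a glycine receptor subunit of neurons, was at 5.32, 8.06, 2.33 and 6.91 in PCM and listed at 0 in 3 of the 4 PAM samples, with 1.28 in mouse 1089. Bank1, Zcchc4 and Glra2 passed the filter through PCM alone, as did Clec4a3, Syt6, Gimap6 and Car7, so their p-values are weaker support. The part of the lower depth of PAM in the values of 0 was not tested. Car7, a carbonic anhydrase of neurons, fell from 9.33, 9.04, 8.82 and 8.38 to 0, 0.728, 4.51 and 0.161 (log2 difference -2.44, SE 0.48, adjusted p = 0.0124). Efnb3, the ligand ephrin-B3, fell from 44.6, 29.9, 24.2 and 33.3 to 12.2, 9.63, 11.03 and 17.3, with CM at 16.7 ± 3.86 (log2 difference -1.32, SE 0.24, adjusted p = 0.00831). Car7 and Efnb3 lost their calls without mouse 1089; and Zcchc4 without mouse 1089 or 1129, at an adjusted p of 0.0526 to 0.0816.

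A few markers of neurons and oligodendrocytes were called lower in PAM. Of 23 neuronal markers, 22 were tested, 0 were higher and 2 lower (0 to 3; 1 to 8), and 21 of the 22 differences were negative (median -0.48). Their summed level was 4177, 4919.6, 5419.5 and 5064 in PCM and 3578, 3423, 3909 and 3668 in PAM, lower in PAM in each mouse, with Snap25 the most abundant. Syt1, the calcium sensor of synaptic vesicles, fell by 0.68 from 205, 250.1, 225 and 219.8 to 149, 147, 126 and 137 (adjusted p = 0.0138), and Vamp2, a vesicle SNARE, fell by 0.54 (adjusted p = 0.0352). Snap25 and Nrgn, a postsynaptic calmodulin-binding protein, had differences of -0.51 and -0.39 (adjusted p = 0.0834 and 0.132), both of which passed with the deposited values and after quantile normalization. Of 12 interneuron markers, 11 were tested and 0 passed limma (0 to 1; 0 to 1). An unadjusted p under 0.05 was reached by 3 of them, against 2516 of all 12142 genes tested. The median of -0.38 was -0.0965 without mouse 1089 and -0.62 without mouse 1129. Sst, the neuropeptide somatostatin, had a difference of -0.84 (SE 0.38, adjusted p = 0.233). Of 13 oligodendrocyte markers, all tested, 0 were higher and 2 lower (1 to 2; 2 to 6), with a median of -0.72. Ugt8a, which makes myelin galactolipids, fell to 8.21, 6.93, 5.03 and 2.52 from 21.5, 11.9, 26.1 and 13.2 (log2 difference -1.54, SE 0.34, adjusted p = 0.0226). Mbp, the most abundant gene of that list, had a difference of -0.27 (SE 0.16, adjusted p = 0.367). Its summed level was 3695, 1746, 2871 and 2063 in PCM and 1842, 1496, 2049 and 1777 in PAM. Syt1 lost its call without mouse 1089, 1129 or 1190; Ugt8a without mouse 1129 or 1190; and Vamp2 without mouse 1088, 1089, 1129 or 1190, at an adjusted p of 0.0535 to 0.162. Snap25 gained a call without mouse 1088, at an adjusted p of 0.0148.

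Some astrocyte genes were higher in PAM. Of 18 astrocyte markers, 4 were higher (2 to 6; 3 to 5) and 0 lower, with a median of 0.43, and of 10 markers of reactive astrocytes, 7 were tested and 5 were higher (4 to 5; 4 to 5), with a median of 2.32. Gfap (chr11:102887336-102897200), the intermediate filament that astrocytes make when reactive, read 31.7, 67.7, 52.8 and 40.8 in PCM and 475, 1030.5, 803 and 415 in PAM. The lowest PAM value was far above the highest PCM value, and it had the smallest adjusted p of the named genes (log2 difference 3.75, SE 0.15, adjusted p = 7.45e-07). Serpina3n, a secreted protease inhibitor of reactive astrocytes that microglia can also express, rose from 7.88, 9.73, 2.21 and 9.53 to 40.04, 35.2, 24.3 and 51.5 (log2 difference 2.32, SE 0.27, adjusted p = 0.000602). Aldh1l1, a folate enzyme that marks astrocytes, rose by 1.26 (SE 0.21, adjusted p = 0.00424), and Mlc1, a membrane protein of their endfeet, by 0.81 (SE 0.18, adjusted p = 0.0269). Slc1a3, a glutamate transporter, and Aqp4, the water channel of endfeet, had differences of 0.45 (SE 0.14, adjusted p = 0.108) and 0.53 (SE 0.35, adjusted p = 0.433), with overlapping groups. Aldoc, the most abundant marker, had one of 0.42 (SE 0.14, adjusted p = 0.108). The summed level of the astrocyte list was 2669.8, 1957, 2501 and 1865 in PCM and 3527, 4446, 4546 and 3212 in PAM, and that of the reactive list 53.4, 84.2, 69.4 and 73.5 and 569, 1224, 981 and 522. Gfap belongs to both lists, Vim, C4b and Cd44 to the reactive list, and the part of astrocyte RNA in their rise was not tested. Cd44 lost its call without mouse 1088, 1089 or 1129; and Mlc1 without mouse 1089, 1129 or 1190, at an adjusted p of 0.0501 to 0.217.

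Other cell types gave few calls. Of 8 markers of oligodendrocyte precursors, 1 was higher (0 to 1; 0 to 2), C1ql1, a secreted C1q-like protein, by 1.497 (SE 0.36, adjusted p = 0.03397), with an adjusted p of 0.0857 without the block (0.0167 to 0.201 over all settings), and the median was 0.46. Olig1, a transcription factor of these cells, had a difference of 0.48 (SE 0.17, adjusted p = 0.1398). Of 13 endothelial markers, 9 were tested, 0 passed limma and 0 had an unadjusted p under 0.05 (median -0.19), and Itm2a, a membrane protein of the endothelium, had one of -0.19 (SE 0.22, adjusted p = 0.6802). Of 15 markers of mural cells and fibroblasts, 8 were tested and 1 was lower (0 to 1; 1), with a median of -0.54. It was Higd1b, a gene of pericytes, which fell from 22.98, 10.1, 12.6 and 12.2 to 1.81, 4.91, 2.47 and 1.62 (log2 difference -2.08, SE 0.41, adjusted p = 0.0127). Rgs5, another pericyte gene, had a difference of -0.52 (SE 0.39, adjusted p = 0.48002). Of 14 monocyte and neutrophil markers found, 5 were tested and 3 were higher (0 to 2; 2 to 3), with a median of 1.52 and a summed level of 71.1, 33.1, 46.5 and 89.02 in PCM and 101, 162, 171 and 173 in PAM. S100a6, the most abundant, a calcium-binding protein of many cell types, rose by 1.52 (SE 0.29, adjusted p = 0.0104), S100a4 by 1.695 (SE 0.36, adjusted p = 0.0195), with an adjusted p of 0.0633 without the block (0.0148 to 0.146 over all settings), and Cd44, the hyaluronan receptor that reactive astrocytes share, by 1.704 (SE 0.44, adjusted p = 0.0499). S100a8, S100a9, Ccr2 and 6 more were under the filter, and 5 of the 14 were listed at 0 in all 8 samples, Ccr2 reaching at most 0.565. Of 13 lymphocyte markers, 2 were tested (median -0.87), 0 passed limma, 1 had an unadjusted p under 0.05, and 9, with Cd3e, were listed at 0 in all 8 samples. Cd79b, a B cell receptor chain that microglia can express, had a difference of -0.25 (SE 0.34, adjusted p = 0.735), and Stab1, the single tested marker of border macrophages, one of -1.01 (SE 0.44, adjusted p = 0.221). C1ql1 lost its call without mouse 1088, 1089 or 1190; Higd1b without mouse 1088; S100a4 without mouse 1089 or 1190; and S100a6 without mouse 1089 or 1129, at an adjusted p of 0.0515 to 0.151.

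Of 36 genes that the study names, 31 were tested, 14 were higher (7 to 14; 11 to 14) and 3 lower (0 to 5; 2 to 5) in PAM, with a median of 0.70. Some were known markers and others were chosen on these samples, so the count is not independent evidence. Cst7, Clec7a, Cd68, Ctsd, H2-Aa, C3ar1, Rhoa, Apoe, H2-Ab1, Itgax, Ifit3, Oasl2, S100a4 and Cd44 were the rises, and Syt1, Vamp2 and Efnb3 the falls. Penk, the precursor of enkephalins in neurons, was at 834, 316, 134 and 58.1 in PCM and 22.2, 43.5, 63.1 and 96.3 in PAM. The PCM samples differed widely, that of mouse 1190 lay within the PAM range, and the difference of -2.09 (SE 0.67, adjusted p = 0.107) did not pass. Rab5c, a GTPase of early endosomes, Wscd1, Tstd2, Trp53inp2 and Emc2 did not pass either, with differences of 0.61, -0.66, -0.97, -0.22 and 0.35. Abcc9, Zfp607, Zfp808, Cd163 and Siglec1 were under the filter, with Abcc9 at 0.629, 1.07, 0.53001 and 0.115 in PCM and listed at 0 in 3 PAM samples. Penk gained a call without mouse 1190, at an adjusted p of 0.0132.

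The same comparison in 8 samples of 4 other mice at 12 months asked whether the differences recur. There, 12110 genes were tested, 124 were higher (1.02%) and 3 lower (0.0248%) in PAM. Of the 573 genes higher at 8 months, 115 were also called higher at 12 months, which is 20.07% of the 8-month list and 92.7% of the 12-month list. Without mouse 1089, 104 of 271 (38.4%) were shared, and with a pseudocount of 0.1 the share was 12.7%. Without the filter or the variance trend, 0 genes were called at 12 months, so no share can be given. Of the 567 that were tested at 12 months, 548 (96.6%) had a positive difference, against 49.7% of all genes, with a median of 0.68. It was 1.28 at 8 months, where the genes were selected, so a smaller median in other mice can arise without any change. Of the 88 genes lower at 8 months, 0 were called by limma at 12 months and 17 had an unadjusted p under 0.05 in the same direction, while 68 of 83 tested (81.9%) had a negative difference. Spp1 and Gpnmb had larger differences at 12 months than at 8 months, 3.64 and 3.65 (adjusted p = 0.00346 and 0.00346). Cst7 (2.72), Clec7a (2.05), Trem2 (1.48) and Apoe (1.15) passed with smaller ones, and Tyrobp (1.62, adjusted p = 0.0583) did not pass. Tmem119, which did not pass at 8 months, was called lower at 12 months (-1.198, adjusted p = 0.0348). Clec4a3 had a difference of -0.38 at 12 months (adjusted p = 0.832).

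Whether the 2 ages differ was tested in the 16 samples of both. Of 12586 genes, 1 passed, Gfap (0.00795%), while 979 had an unadjusted p under 0.05 (7.78%). The difference of Gfap was 3.75 at 8 months and 1.44 at 12 months, a change of -2.31 (SE 0.21, adjusted p = 0.000529). Without mouse 1190, Pdyn, the precursor of dynorphins, passed as well, and without the filter or the variance trend 0 genes passed limma, with 1163 and 868 at an unadjusted p under 0.05. The next smallest p-values belonged to Zcchc4, Ccl3, Gimap6 and Tmem176b, a membrane protein of myeloid cells, with adjusted p of 0.253, 0.434, 0.484 and 0.500, so Ccl3, with 3.57 at 8 and 2.27 at 12 months, did not pass. Nor did the age difference of Tmem119 (-0.78, SE 0.33, adjusted p = 0.623), Tyrobp (-0.47, SE 0.39, adjusted p = 0.766), Spp1 (0.399, SE 0.69, adjusted p = 0.908) or Clec4a3 (3.05, SE 0.76, adjusted p = 0.521). The 4 mice of each age are different animals, so age and animal cannot be told apart beyond their spread.

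**Figure D3:**
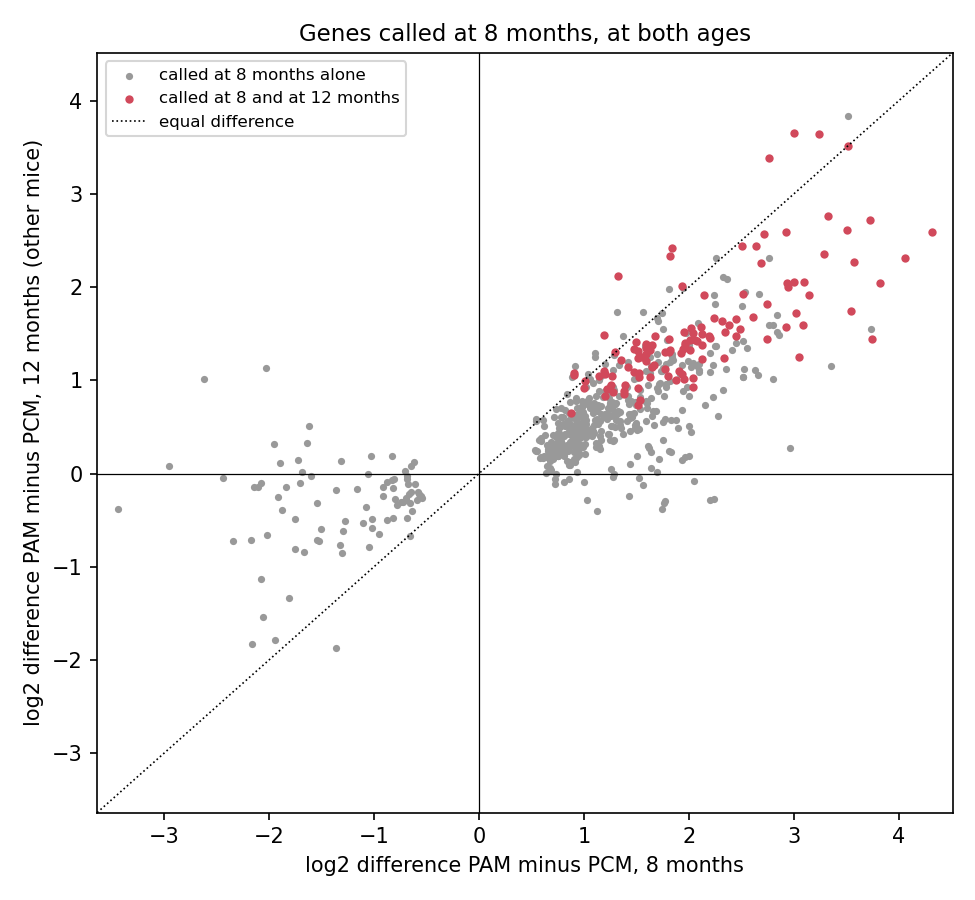
Log2 difference, PAM minus PCM, of genes called at 8 months, at 8 months (horizontal) and in other mice at 12 months (vertical), with genes called at both ages in red and equal differences on the dotted line. Most rises lie above 0 on both axes and, selected at 8 months, below the dotted line, and no fall is red.

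Levels in mice without plaques put PCM between CM and PAM for many of the genes higher in PAM. CM come from other mice, PCM enter both differences, and no test was made. The mean was higher in PCM than in CM for 50.07% of all genes tested, for 431 of the 573 genes higher in PAM (75.2%) and for 60 of the 88 genes lower in PAM (68.2%). For 59 of these 88 genes the mean was highest in PCM and lowest in PAM, so PCM was not between the others. Of the 54 plaque response genes, 52 had a higher mean in PCM, and for 13 of them (24.1%) every PCM sample was above every CM sample, against 1.84% of all genes. A higher mean in PCM was not particular to this list. It held for 17 of 17 identity genes, 28 of 29 homeostatic genes and 13 of 13 oligodendrocyte markers. In each of those lists, 0 genes had every PCM sample above every CM sample. The median difference of PCM from CM over this list was 0.77 and that of PAM from CM 2.98. Cst7 was at 0.7997 ± 1.07 in CM, 96.6 ± 55.4 in PCM and 1042 ± 281 in PAM (mean ± SD, n = 4). Ccl3 had 1.49 ± 1.803 in CM and 25.1 ± 16.9 in PCM, and Ccl6 12.3 ± 7.37 and 106 ± 72.5. H2-Aa was listed at 0 in all CM samples, as was Ch25h. Apoe was nearly level in CM and PCM, at 1797 ± 200.5 and 1846 ± 324, and reached 4914 ± 524 in PAM. Gfap was at 16.7 ± 5.27 in CM, 48.3 ± 15.6 in PCM and 681 ± 289 in PAM. Homeostatic genes had a median of 0.27 for PCM against CM and of 0.50 for PAM against CM.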

How the data were processed

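Per the labels, microglia were captured by laser from cortical sections of female mice and grouped by age, distance and mouse number. According to the submitters' notes, the authors made libraries with SMART-Seq v4 and Nextera XT, converted and trimmed reads with bcl2fastq 2.17.1.14 and cutadapt 1.9.1, aligned them to mm10 with TopHat2 2.1.0 and estimated transcript levels with Cufflinks 2.1.1. The deposited values are FPKM per transcript, and the deposited coverage is the depth of reads over the transcript. The depth of a sample was estimated from coverage, FPKM and the 75-base read length. It varied by less than 1.5 times, and FPKM give no counting error, so the precision is that of 4 mice per group.

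FPKM were summed per gene name over 31002 transcripts. The 503 transcripts without a gene name and 22 genes with a failed estimate in a sample were left out. Samples were scaled by the median-ratio (RLE) method over 10668 genes of all 32 samples, with factors of 0.892 to 1.104, and 0 pairs of samples were identical. Log2(scaled FPKM + 1) was fitted with limma 3.58.1 in R 4.3.3 (group plus mouse, empirical Bayes with a trend, 2-sided), with Benjamini-Hochberg adjustment over all genes tested and a threshold of 0.05. The same fit was made on the 12-month samples, and on 16 samples with the age difference. Tables and plots were made with Python 3.11.15, numpy 2.4.6, pandas 2.3.3, scipy 1.17.1 and matplotlib 3.10.9.

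PAM and PCM were paired by the mouse number in the labels. In the data, the deviations of a sample from its group mean correlated across genes between the samples of a mouse at 0.002, 0.107, 0.030 and 0.083. Between PAM and PCM of different mice the same correlation ran from -0.072 to 0.055, so the values of mice 1088 and 1129 lay within that range.

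The samples compared and the 33 gene lists, which match 811 of 812 names, were chosen with earlier results of these data known. Named genes were drawn from, per list, up to 4 called genes in each direction and up to 2 not called, by mean level; the genes the study names; the 10 largest rises and falls without overlap; and the 5 smallest p-values of the age difference. Cx3cr1, Spp1, Igf1, Lpl, Axl, Lgals3, Gpnmb, Csf1, Cd63, Sptssa, Tgfb1, Aqp4, Slc1a3, Lamp1, Pdyn, Mki67, Top2a, S100a8, S100a9, Ccr2, Tnf, Il10, Cd3e, Pf4, Atp6v0e, Atp6v1f, Atp6v1g1 and Tcirg1 were named after their values were seen, and the wider group of pump genes was added then. Some genes counted in the lists are not reported here by name.

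Alternatives were no block, no scaling, quantile normalization, a pseudocount of 0.1, no filter, a filter of 5 FPKM, the highest transcript alone, no variance trend, 16 samples in a single fit, and leaving out each mouse.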

Additional observations from a re-analysis of the deposited data

Results flagged for a closer look

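In some groups of 4 mice, a sample lay far from the other 3, with a gap that took most of the group's range. This held in 34 of the 406 groups of values examined (8.37%), while chance does so in about 1 in 20. In 5 of them (Abcc9, Cxcl10, Glra2, Siglec1 and Tnf) the other 3 values were 0, so any value above 0 is flagged there. Without the 16 groups that have 3 or 4 values at 0, it held in 29 of 390 (7.44%). All values are scaled FPKM. PAM of mouse 1088 stood far above its group with 129 for Hvcn1 and 11.2 for Rgs5. PAM of mouse 1088 stood far below its group with 67.9 for S100a6 and 101 for the summed level of monocyte and neutrophil markers. PAM of mouse 1089 stood far above its group with 1.28 for Glra2. PAM of mouse 1089 stood far below its group with 892 for Cd68, 31.9 for Ch25h, 92.2 for H2-T23, 1154 for Snap25 and 2874 for the summed level of cytokines and growth factors. PAM of mouse 1129 stood far above its group with 4.51 for Car7, 32.5 for Ifit3, 461 for Ifitm3 and 0.688 for Tnf. PAM of mouse 1129 stood far below its group with 50.6 for Emc2 and 83.0 for Sptssa. PAM of mouse 1190 stood far above its group with 0.0661 for Abcc9, 347 for Atp6v0e, 616 for Cd63, 1328 for Ctsb, 12313 for Ctsd and 647 for Lamp1.

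PAM of mouse 1190 stood far below its group with 269 for P2ry12. In PCM, mouse 1088 was far above the rest with 4.03 for Cxcl10, 5.97 for Lgals3 and 41.5 for Pcna. In PCM, mouse 1089 was far above the rest with 0.439 for Cd200r4, 0.386 for Mki67 and 0.213 for Siglec1. In PCM, mouse 1089 was far below the rest with 63.7 for Cd63 and 0.103 for Oasl2. In PCM, mouse 1129 was far above the rest with 4.33 for Itgax. In PCM, mouse 1190 was far above the rest with 4.11 for Stab1. In PCM, mouse 1190 was far below the rest with 0.105 for Ifit2.

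The difference between PAM and PCM of Gfap was smaller at 12 months than at 8 months by the test of the age difference, at -2.31 on the log2 scale (SE 0.21, adjusted p = 0.000529). The cause was not tested.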

How the results depend on the processing

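Of 106 called genes named in the text, all kept their direction under every alternative except Fth1, which was at -0.44 after quantile normalization. Calls kept were 97 without the replicate block, 97 with the deposited values, 88 after quantile normalization, 95 with a pseudocount of 0.1, 102 with the highest transcript alone, 104 in the fit of 16 samples, 42 without a variance trend and 5 without the filter. All 101 that pass a filter of 5 FPKM kept their call under it. Leaving out a mouse kept 68 to 96. Without the replicate block, 556 genes were higher and 102 lower, and the calls lost among those named were Atp6v1g1, Bhlhe40, C1ql1, Cd74, Ctss, H2-Aa, Oasl2, S100a4 and Spi1. Cx3cr1, which was not called, was at -0.0742 with the deposited values, at -0.13 after quantile normalization, and between -0.15 and 0.23 with a mouse left out.

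The count of genes higher in PAM was 19 without the filter and 140 without a trend, and 271 to 530 with a mouse left out. The count of lower genes was 194 with the deposited values, 234 after quantile normalization, 52 with a pseudocount of 0.1, 0 without the filter, 11 without a trend, 149 in the fit of 16 samples, and 23 to 79 with a mouse left out. Genes whose difference changed with age numbered 0 without the filter (limma, 1163 at an unadjusted p under 0.05), 0 without a trend (868), and 1 to 2 with a mouse left out, the latter without mouse 1190 (Gfap and Pdyn). Of the genes higher at 8 months, the percentage also called at 12 months was 26.3 with the deposited values, 28.5 after quantile normalization, 12.7 with a pseudocount of 0.1, and 20.9 to 38.4 with a mouse left out. Without the filter or the trend, 0 genes were called at 12 months, so no share could be given. Medians of some lists moved with a mouse left out. They ranged from 0.06 to 0.24 for glycolysis and hypoxia and from 0.03 to 0.34 for immediate early genes. For oligodendrocyte precursors the range was 0.34 to 0.70, for the endothelium -0.47 to 0.08, and for mural cells and fibroblasts -0.60 to -0.26. The cause of these shifts was not tested. Each fit without a mouse has fewer samples, and the count of rises was 271 without mouse 1089 and 530 without mouse 1088.

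With 4 mice per group, a difference that did not pass is not shown to be absent. FPKM hold no counts, so counting error is unknown, and low genes rest on few reads.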
